A study of Mus musculus with 8 samples.

Results

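Transcripts of 10 angiogenic ligands, the secreted factors that guide and stabilise growing blood vessels, were followed in E14.5 mouse kidneys lacking Etv4. The genes were taken by name from the deposited table: Vegfa, Vegfb, Vegfc, Vegfd and Pgf of the VEGF family, Angpt1 and Angpt2, Apln, and Pdgfa and Pdgfb. All 10 had a row among 21291 gene rows, and all 10 were among the 14974 genes with at least 10 scaled counts in at least 4 libraries. Polyadenylated RNA came from both kidneys of one embryo per library, with 4 control and 4 mutant libraries. Controls were Six2-GFPcre tg/+; Etv4+/-; Etv5fl/fl and mutants Six2-GFPcre tg/+; Etv4-/-; Etv5fl/fl. Both groups therefore carry the Cre transgene, which is active in nephron progenitors, and homozygous floxed Etv5. The labelled difference is 1 more null Etv4 allele, which the labels do not limit to any cell type. The series asks what loss of Etv4 and Etv5, related ETS-family transcription factors, from nephron progenitors does to the kidney.

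VEGF-A, VEGF-B and placental growth factor (encoded by Pgf) bind the receptor FLT1, and VEGF-A also signals through KDR, the main driver of endothelial growth. VEGF-C and VEGF-D act chiefly on FLT4, the receptor of lymphatic endothelium. Angiopoietin 1 activates the endothelial receptor TEK and angiopoietin 2 modulates it, apelin acts on APLNR, and PDGF-B recruits mural cells through PDGFRB. In the fetal kidney podocytes are a well-known source of VEGF-A. Endothelial cells are a known source, though not the only possible one, of angiopoietin 2, apelin and PDGF-B.

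Libraries held 15515139 to 39548327 estimated counts, and values below are counts scaled by a size factor per library, unless another scale is named. Control 4 was the shallowest library. The lowest estimated count of any of the 10 ligands in any library was 84. Etv4 fell in the mutants, from 2686 ± 250.4 to 239 ± 59.8 scaled counts (mean ± SD, n = 4 each), with no overlap between the groups. Etv5 stood at 3614 ± 491 in controls and 2120 ± 510.5 in mutants, also without overlap, and did not pass (limma adjusted p = 0.106), although both groups carry the same labelled Etv5 genotype. The nephron progenitor and ureteric markers that define the embryonic kidney were present in every library, whereas 5 of 9 tubule markers stood at 0 in at least 1 library. Of the Y-linked genes Ddx3y, Uty, Eif2s3y and Kdm5d, none was under 389 scaled counts in a control or above 12.2 in a mutant. The sex of the embryos and the genotype cannot be told apart for any result below. The labels speak of control littermates without saying which embryos shared a litter.

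Pgf fell in the mutant kidneys, and no other ligand of the 10 passed the test. Controls 1 to 4 held 313, 221, 320 and 232 scaled counts of Pgf, and mutants 1 to 4 held 104, 148, 88.8 and 96.7. All 4 mutant libraries lay below all 4 controls, with control 2 the lowest control and mutant 2 the highest mutant. The group means were 272 ± 52.0 and 109 ± 26.3 (SD, n = 4 each). The log2 fold change was −1.31 (SE 0.21, 95% interval −1.79 to −0.83, limma adjusted p = 0.0441 over all genes tested), or 2.48-fold lower in mutants. Over all genes tested, 0.301% passed that threshold in either direction, 0.220% as lower and 0.0801% as higher, against 1 ligand of the 10 as lower and 0 as higher. Groups of libraries did not overlap for 8.60% of all genes, with the mutants lower for 4.43%, and for 1 of the 10 ligands. In the authors' deposited table of 644 genes, Pgf is the single ligand of the 10, with an adjusted p of 7.93e-06 and a log2 fold change of −1.38 (SE 0.25). That table holds the authors' own test of mutant against control in this same series, so it is not independent support. Its adjusted p and the limma value come from different tests.

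The Pgf difference kept its direction within libraries that share a number in their names. Among controls 1 and 2 and mutants 1 and 2, whose names hold one number, the mean was 267 in controls and 126 in mutants, a log2 difference of −1.08. Between control 4 and mutant 4, whose names hold another, it was −1.26. The call was lost with the number in the library name as a block (log2 fold change −1.14, limma adjusted p = 0.134), in those first 4 libraries alone (0.297) and with the replicate number as a block (0.0533). Among 8 fits that each left out 1 library, Pgf passed in 2, without control 4 (limma adjusted p = 0.0285) and without mutant 2 (0.0447). It was 0.177, 0.0659 and 0.196 without controls 1, 2 or 3 and 0.130, 0.153 and 0.128 without mutants 1, 3 or 4, with log2 fold changes from −1.46 to −1.22 in these 8 fits.

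**Figure D1:**
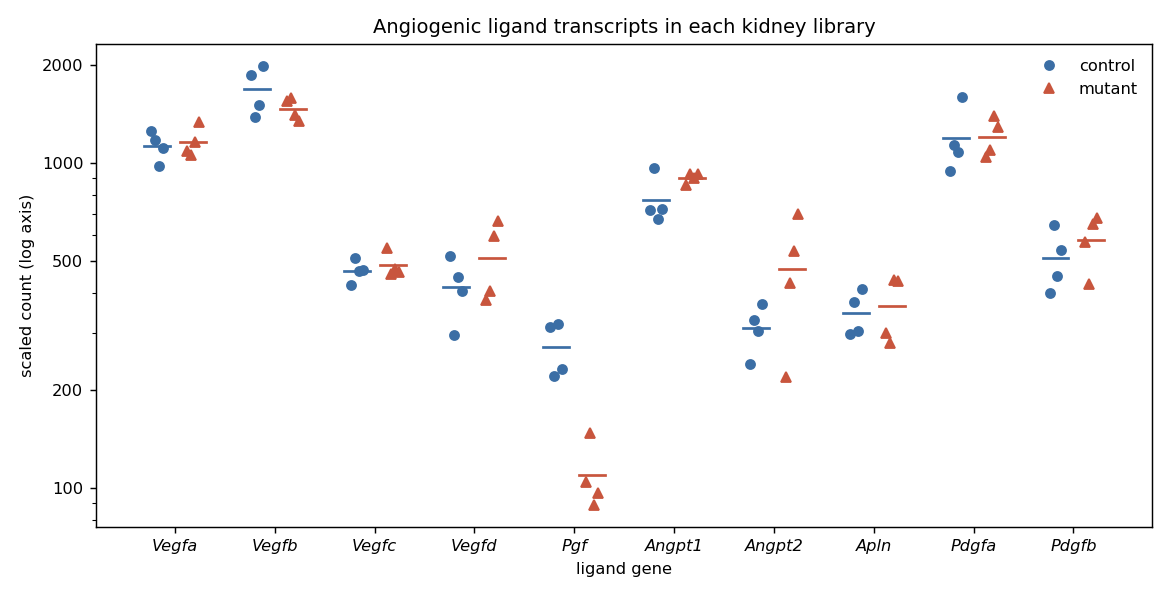
Scaled counts (log axis) of the 10 ligands in each of 4 control libraries (circles) and 4 mutant libraries (triangles), with horizontal lines at the group means. The groups separate for Pgf, at 221 to 320 in controls and 88.8 to 148 in mutants, and overlap for the other 9 genes.

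Pgf (ENSMUSG00000004791) lies on chromosome 12, from 85166635 to 85177790 on the minus strand (GENCODE M21, GRCm38). RefSeq (GRCm38.p6) gives it start-site windows of 300 bases at chr12:85177264-85177563 and chr12:85175933-85176232, each with 250 bases before the start and 50 after it. They are shown because Pgf is the ligand that passed, beside the first window of Vegfa (chr17:46032328-46032627, minus strand), which did not. Capitals mark the ETS core GGAA on either strand.
Pgf window 1: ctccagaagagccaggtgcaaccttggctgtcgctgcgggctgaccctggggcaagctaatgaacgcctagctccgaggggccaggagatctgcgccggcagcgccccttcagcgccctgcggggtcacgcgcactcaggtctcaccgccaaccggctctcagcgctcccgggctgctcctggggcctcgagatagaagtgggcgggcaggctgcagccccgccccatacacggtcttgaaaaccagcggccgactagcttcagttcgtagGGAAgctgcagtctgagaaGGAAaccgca
Pgf window 2: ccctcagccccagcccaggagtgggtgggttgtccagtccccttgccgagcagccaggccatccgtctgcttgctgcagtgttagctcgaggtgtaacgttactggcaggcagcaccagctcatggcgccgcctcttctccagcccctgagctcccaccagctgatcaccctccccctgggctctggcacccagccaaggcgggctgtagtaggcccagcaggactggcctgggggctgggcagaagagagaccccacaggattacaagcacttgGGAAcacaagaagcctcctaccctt
Vegfa window 1: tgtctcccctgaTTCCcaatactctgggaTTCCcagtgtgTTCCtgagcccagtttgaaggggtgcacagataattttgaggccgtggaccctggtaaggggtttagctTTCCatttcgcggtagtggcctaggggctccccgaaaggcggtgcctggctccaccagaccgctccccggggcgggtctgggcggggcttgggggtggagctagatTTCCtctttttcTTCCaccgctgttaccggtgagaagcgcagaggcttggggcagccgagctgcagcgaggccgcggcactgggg
The core occurred 2 times in the first Pgf window, 1 time in the second and 6 times in that of Vegfa. It was present in 96% of 32851 such windows of all genes, so its presence sets no gene apart. The longer ETS-type motifs AGGAAG and CGGAAG, which contain the core, are in neither Pgf window, and were found in 35.4% and 16.9% of all windows on either strand. Neither Pgf window reaches the upstream end of the GENCODE gene at 85177790, where no motif was sought. Of 10 windows for the 7 ligands with an entry, Apln held AGGAAG and the second Pdgfa window held both AGGAAG and CGGAAG. The hypoxia element core, ACGTG or GCGTG on either strand, occurred in 4 of the 10 windows, among them 1 of Pgf, and in 43.8% of all windows. Angpt1, Angpt2 and Pdgfb had no entry.

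The other FLT1 ligands, Vegfa and Vegfb, overlapped between the groups and did not pass. Vegfa (ENSMUSG00000023951, chromosome 17) had 1255, 1177, 982 and 1112 scaled counts in controls and 1091, 1060, 1159 and 1338 in mutants. Its lowest library was control 3 and its highest mutant 4, and the groups overlapped. The log2 fold change was 0.04 (95% interval −0.20 to 0.28, limma adjusted p = 0.924), an interval that leaves room for a difference of either sign. Its sign was negative (−0.18) among controls 1 and 2 and mutants 1 and 2, and positive (0.27) between control 4 and mutant 4. Vegfb (ENSMUSG00000024962, chromosome 19), whose product binds FLT1 but not KDR, had 1870, 1386, 1513 and 1993 in controls and 1556, 1584, 1404 and 1351 in mutants. Mutant 4 was the lowest library and control 4 the highest, with a log2 fold change of −0.19 (95% interval −0.46 to 0.09, limma adjusted p = 0.596). Per kilobase of exon, Pgf made up 6.70 ± 1.47% of the summed Vegfa, Vegfb and Pgf level in controls and 3.05 ± 0.612% in mutants (SD, n = 4 each). The share ran from 5.07% to 8.59% in controls and from 2.60% to 3.96% in mutants, a description that follows from the lower Pgf values.

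The lymphatic ligands did not pass either. Vegfc (ENSMUSG00000031520, chromosome 8) had 422, 510, 467 and 470 scaled counts in controls and 550, 455, 473 and 464 in mutants. It varied least of the 10 in controls, with an SD of 7.73% of the mean, and its log2 fold change was 0.05 (95% interval −0.20 to 0.30, limma adjusted p = 0.887). Vegfd (ENSMUSG00000031380), which is X-linked, had 518, 297, 446 and 404 in controls and 380, 404, 596 and 664 in mutants. Mutants 3 and 4 were above every control and mutants 1 and 2 inside the control range, with a log2 fold change of 0.28 (95% interval −0.22 to 0.79, limma adjusted p = 0.659). Among controls 1 and 2 and mutants 1 and 2 the Vegfd difference was −0.001, and between control 4 and mutant 4 it was 0.72.

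The angiopoietins had positive fold changes within the spread of the libraries. Angpt1 (ENSMUSG00000022309, chromosome 15) had 717, 967, 672 and 725 scaled counts in controls and 857, 926, 903 and 927 in mutants. All 4 mutants were above the control mean, and control 2 was above them all. The log2 fold change was 0.24 (95% interval −0.03 to 0.51, limma adjusted p = 0.466), the smallest adjusted p among the 9 ligands that did not pass. Angpt2 (ENSMUSG00000031465, chromosome 8) had 241, 329, 304 and 368 in controls and 220, 429, 536 and 700 in mutants. Mutants 2, 3 and 4 were above every control, mutant 1 was below every control, and the mutant SD was 42.7% of the mean against 17.1% in controls. Its log2 fold change of 0.50 had the widest interval of the 10, from −0.20 to 1.20 (limma adjusted p = 0.567). It rested on single libraries, at 0.82 without mutant 1 (limma adjusted p = 0.208) and 0.27 without mutant 4 (0.834). Mutant 4 exceeded control 4 by 0.93 on the log2 scale, while mutants 1 and 2 exceeded controls 1 and 2 by 0.12 on average.

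Vegfd and Angpt2, like Apln and Pdgfb below, were highest in mutants 3 and 4, the mutant libraries with the most tubule and podocyte transcript. The summed level of 9 tubule markers was 1274, 1388, 4506 and 10411 in mutants 1 to 4 and 538 to 4293 in controls, where control 4 was highest. In control 4, Vegfd stood at 404, below the control mean of 416, while Angpt2 (368) and Apln (410) were the highest of the controls. Pdgfb in control 4 (542) was above its control mean of 510. The summed level of 11 podocyte markers was 17634, 16026, 23133 and 26600 in mutants 1 to 4 and 13132 to 17151 in controls. Of these lists, 5 of 5 tested tubule markers and 10 of 10 tested podocyte markers had positive fold changes, beside 51.7% of all genes. In both lists 0 passed the limma threshold, and 0 and 3 had an unadjusted p below 0.05, where 12.0% of all genes did. The part of these markers in the ligand levels was not tested. In bulk tissue, fewer or more cells of a type and a different amount of RNA per cell cannot be told apart.

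Apelin and the PDGF ligands likewise overlapped between the groups. Apln (ENSMUSG00000037010), also X-linked, had 297, 374, 304 and 410 scaled counts in controls and 300.2, 280, 437 and 435 in mutants. Mutants 3 and 4 were the highest libraries and mutant 2 the lowest, with a log2 fold change of 0.05 (95% interval −0.37 to 0.48, limma adjusted p = 0.943). Pdgfa (ENSMUSG00000025856, chromosome 5), a ligand of PDGFRA, had 943, 1142, 1085 and 1600 in controls and 1042, 1102, 1393 and 1295 in mutants. Control 4 was the highest library, and the log2 fold change was 0.04 (95% interval −0.33 to 0.40, limma adjusted p = 0.953). Pdgfb (ENSMUSG00000000489, chromosome 15) had 399, 648, 450.1 and 542 in controls and 574, 424, 650.5 and 680 in mutants. Mutants 3 and 4 exceeded every control, with a log2 fold change of 0.19 (95% interval −0.24 to 0.62, limma adjusted p = 0.730).

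Over the 10 ligands, 8 fold changes were positive and 2 negative, with a median log2 fold change of 0.05, beside 51.7% positive and a median of 0.0087 over all genes tested. Of the 9 ligands other than Pgf, 0 had an unadjusted p below 0.05, where 12.0% of all genes did, and limma voom on the same counts called 0 of these 9. Their 95% intervals reached from −0.46 to 1.20, so that differences of this size are not excluded by 4 libraries a group.

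**Figure D2:**
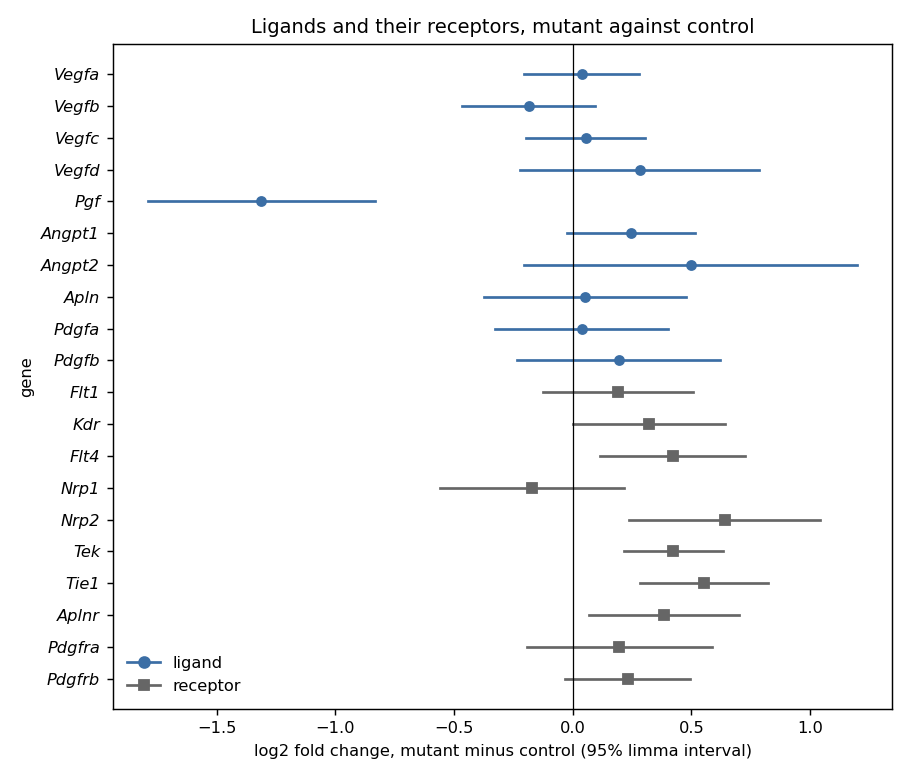
Log2 fold change, mutant minus control, with 95% limma intervals for the 10 ligands (circles) and 10 receptors (squares), n = 4 libraries a group. Pgf stands at −1.31, the other ligands lie between −0.19 and 0.50, and 9 of 10 receptors are on the positive side.

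Compared per kilobase of exon, the order of the ligands was led by Vegfb, at 1053 ± 179 scaled counts per kilobase in controls and 918 ± 71.0 in mutants (SD, n = 4 each). Pdgfa followed at 382 ± 91.1 and 387 ± 52.6, and Vegfa at 264 ± 27.0 and 271 ± 28.9. These 3 did not overlap with each other in either group. In controls the remaining 7 ran from Vegfc (191 ± 14.8) through Vegfd, Angpt1, Pdgfb, Apln and Pgf to Angpt2 (84.2 ± 14.4), each overlapping with its neighbours in this order. In mutants Pgf was the lowest ligand at 37.7 ± 9.07 per kilobase and did not overlap with Apln above it (115 ± 26.9), whereas in controls Pgf (93.6 ± 17.9) overlapped with Apln (110 ± 17.4) and Angpt2. The lengths are unions of all annotated exons, so they overstate the transcript of a gene with many isoforms.

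The receptors of these ligands had mostly positive fold changes. Of the 10 receptor genes listed, 9 had positive fold changes, with a median of 0.35 beside 0.0087 over all genes. None passed the limma threshold, while 6 had an unadjusted p below 0.05 and 4 did not overlap between groups, where 12.0% and 8.60% of all genes did. The 10 receptors summed to 22172 to 30594 scaled counts in controls and 31855 to 35554 in mutants. Tie1, an orphan receptor that modulates TEK, had 3430 ± 597 in controls and 4980 ± 329 in mutants (log2 fold change 0.55, SE 0.12, limma adjusted p = 0.104), and Tek had 1622 ± 96.3 and 2183 ± 233 (0.42, SE 0.09, 0.106). Flt1, the receptor for Pgf, had 1065 ± 175 and 1211 ± 164 (0.19, SE 0.14, 0.634). Kdr stood at 0.32 (SE 0.14), Flt4 at 0.42 (SE 0.14) and Aplnr at 0.39 (SE 0.14) on the log2 scale. The PDGF receptors Pdgfra (0.20, SE 0.17) and Pdgfrb (0.23, SE 0.12) also had positive values. Of the neuropilins, co-receptors of the VEGF family, Nrp2 had a log2 fold change of 0.64 (SE 0.18) and Nrp1, the single negative receptor, one of −0.17 (SE 0.17). Markers of endothelial cells, which carry most of these receptors, stood beside them: 13 of 14 were on the positive side and 0 passed (8 at an unadjusted p below 0.05), and they summed to 19541 to 27148 in controls and 26665 to 29867 in mutants. Their part in the receptor values was not tested.

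Ligands were then set against markers of a known source, or Angpt2 against Angpt1, as a log2 difference within each library. Other possible sources were not used. The 5 relative levels were compared by exact two-sided permutation of the 8 libraries. The smallest p that 4 against 4 libraries allow is 0.0286. With marker lists taken as means, none of the 5 relative levels separated the groups. With the median over podocyte markers, the groups did not overlap for Vegfa (difference −0.93, exact permutation p = 0.0286, adjusted 0.143). Vegfa relative to the mean of 10 podocyte markers was 1.94, 1.15, 1.20 and 0.16 in controls and 1.18, 0.95, −0.18 and −0.32 in mutants. Mutants 3 and 4 were below every control, and the mean difference of −0.70 had an exact p of 0.2 (0.5 adjusted over the 5). Angpt2 relative to Angpt1, which share the receptor TEK, averaged −1.31 ± 0.30 in controls and −1.06 ± 0.67 in mutants (SD, n = 4 each, exact p = 0.543, adjusted 0.679). Angpt2 relative to 14 endothelial markers was −2.14, −2.04, −2.08 and −2.06 in controls and −2.77, −1.77, −1.63 and −1.21 in mutants. The 4 controls lay within a narrow range and all 4 mutants outside it, with 3 above and 1 below, and the mean difference was 0.24 (exact p = 0.486, adjusted 0.679). That difference was 0.55 without mutant 1 and 0.025 without mutant 4. Apln relative to the same markers averaged −1.92 ± 0.11 in controls and −2.13 ± 0.26 in mutants (n = 4 each, exact p = 0.2, adjusted 0.5), and Pdgfb −1.37 ± 0.21 and −1.44 ± 0.23 (n = 4 each, exact p = 0.686, adjusted 0.686).

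**Figure D3:**
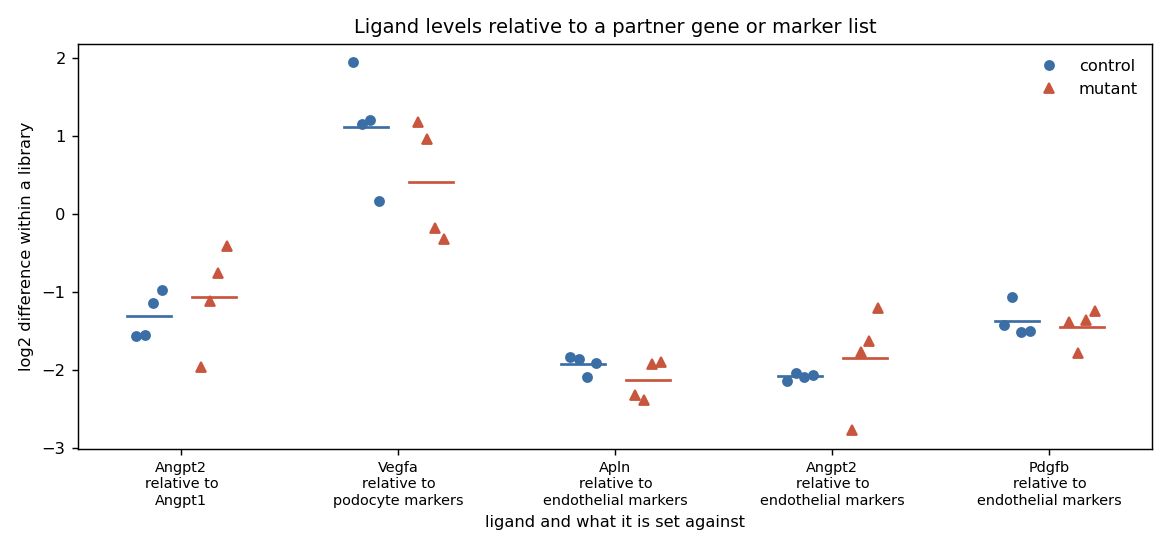
Log2 level of a ligand minus that of a partner gene or the mean of a marker list, in 4 control libraries (circles) and 4 mutant libraries (triangles), with lines at the group means. The control points for Angpt2 against endothelial markers lie between −2.14 and −2.04 and the mutant points between −2.77 and −1.21.

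Among other secreted ligands, Pdgfc, which encodes a further ligand of PDGFRA, had the smallest p. It had 2178, 1607, 1825 and 1337 scaled counts in controls and 1157, 1095, 880 and 930 in mutants. The groups did not overlap, but the limma adjusted p of 0.0858 missed the threshold, at a log2 difference of −0.76 (SE 0.15). It was 0.0206 with control 4 left out and 0.0240 with both control 4 and mutant 4 left out. Leaving out any other single library gave a limma adjusted p from 0.122 (control 2) to 0.279 (control 3), and total count scaling gave 0.3295. The authors' deposited table, their own test on this same series, lists Pdgfc with a log2 fold change of −0.88 (SE 0.14) and an adjusted p of 1.24e-07. Sema3c, a semaphorin that binds neuropilins, stood at 0.51 on the log2 scale (limma adjusted p = 0.268, SE 0.17). Of the 12 genes on this list 11 were tested and 0 passed, with 6 positive and 5 negative fold changes and a median of 0.02. At an unadjusted p below 0.05 there were 2, beside 12.0% of all genes. Epo stood at 0 in at least 1 library and was not tested.

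Hypoxia is a known inducer of Vegfa, and of 16 hypoxia response genes 9 had positive and 7 negative fold changes, with a median of 0.02. The list summed to 74057 to 80987 in controls and 65584 to 78445 in mutants. None passed, and 1 had an unadjusted p below 0.05, where 12.0% of all genes did. That 1 gene was Hk2, a hexokinase, at 1325 ± 347 in controls and 738 ± 99.1 in mutants (log2 fold change −0.81, SE 0.19). Its limma adjusted p of 0.111 became 0.0285 both with control 4 left out and with control 4 and mutant 4 left out. With any other single library left out, it ran from 0.138 (control 2) to 0.317 (control 3). Egln3, an oxygen-sensing prolyl hydroxylase, stood at 0.18 on the log2 scale (limma adjusted p = 0.448, SE 0.09).

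Of 12 genes of endothelial tip cells and Notch signalling, through which VEGF selects sprouting cells, 9 had positive fold changes with a median of 0.23, beside 51.7% positive over all genes. None passed, and 7 had an unadjusted p below 0.05, as 12.0% of all genes did. Of these 7, 5 were positive and Cxcr4 (−1.13, SE 0.29) and Igfbp3 (−0.36, SE 0.10) were negative. The smallest p belonged to the Notch target Hey1 (log2 fold change 0.42, SE 0.10, limma adjusted p = 0.110) and the endothelial adhesion receptor gene Adgrl4 (0.41, SE 0.09, limma adjusted p = 0.111). Of the genes for enzymes and matrix proteins that process or hold VEGF ligands, 11 of 12 were tested, 8 had positive fold changes and none passed, also at an unadjusted p below 0.05 (0 genes). Pcsk7, a proprotein convertase, stood at 0.25 (SE 0.12) and Hpse, the heparanase gene, at 0.32 (SE 0.18).

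The lower Pgf level went with lower nephron progenitor markers, the cells in which Six2-driven Cre is active. The summed level of 8 such markers over controls 1 to 4 was 32508, 21339, 28310 and 17048, and over mutants 1 to 4 it was 10611, 9650, 5328 and 4220. All 8 had negative fold changes with a median of −1.27, and 2 of them fell by the limma test, where 51.7% of all genes were positive and 0.220% fell. The log2 level of Pgf minus the mean of these markers ranged from −2.81 to −2.44 in controls and from −2.92 to −2.20 in mutants. That level is not among the relative levels compared above and was not tested. It sets a gene that fell against markers that fell, so the overlap follows in part from that choice. The summed levels of 8 early nephron markers (control range 15236 to 22164, mutant range 24039 to 27129) and of 9 macrophage markers (2259 to 3529 and 3677 to 4198) also did not overlap between the groups. None of these 8 early nephron or 9 macrophage markers passed the limma threshold. At an unadjusted p below 0.05 there were 7 and 5, beside 12.0% of all genes. The part of any of these cell types in the Pgf difference was not tested.

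**Figure D4:**
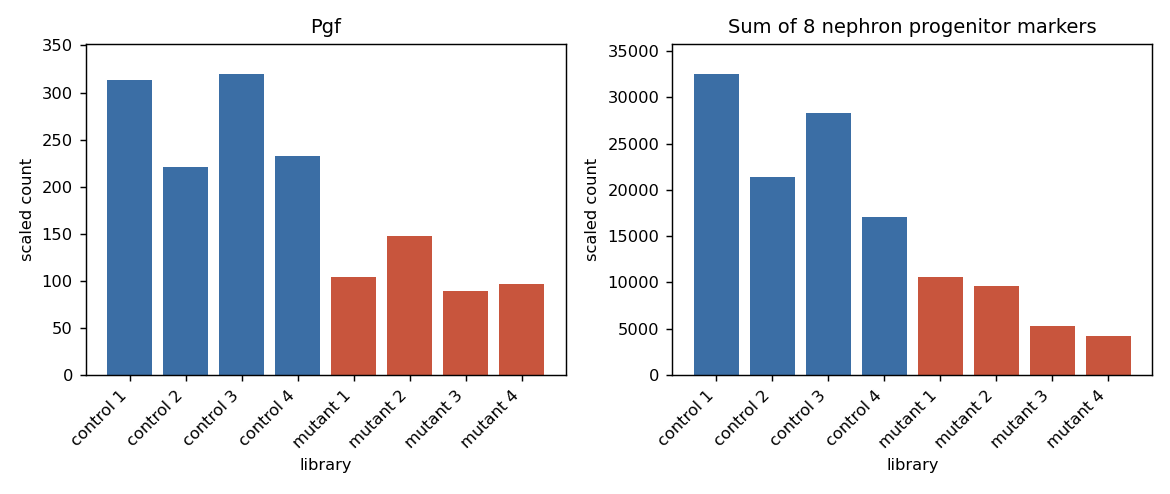
Scaled counts of Pgf (left) and summed scaled counts of 8 nephron progenitor markers (right) in each library, as bars from 0. Both are lower in all 4 mutants than in all 4 controls, and controls 1 and 3 are the highest in both panels. The order differs otherwise: the lowest control is control 2 for Pgf and control 4 for the markers. The highest mutant is mutant 2 for Pgf and mutant 1 for the markers.

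Likeness across the 8 libraries was measured by Pearson's r of log2 scaled counts, which is a description over few libraries that share depth and genotype. The 5 genes most like Vegfa were Sec14l2 (r = 0.93), Pura (0.93), Foxred1 (0.92), Zfp968-ps (0.92) and Mras (0.90), of 14974 genes tested. None of the 5 passed the limma threshold, with log2 fold changes from −0.008 for Foxred1 to 0.55 for Zfp968-ps. For Pgf, added after its values were seen, they were Cd47 (r = 0.99), Septin6 (0.98), Mrpl49 (0.98), Rrs1 (0.98) and Hes6 (0.97). Choosing genes by their likeness to Pgf, whose groups do not overlap, favours genes that separate the groups in the same way. Their log2 fold changes, from −0.41 for Cd47 to −0.21 for Rrs1, were smaller than that of Pgf and did not pass the limma threshold.

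**Figure D5:**
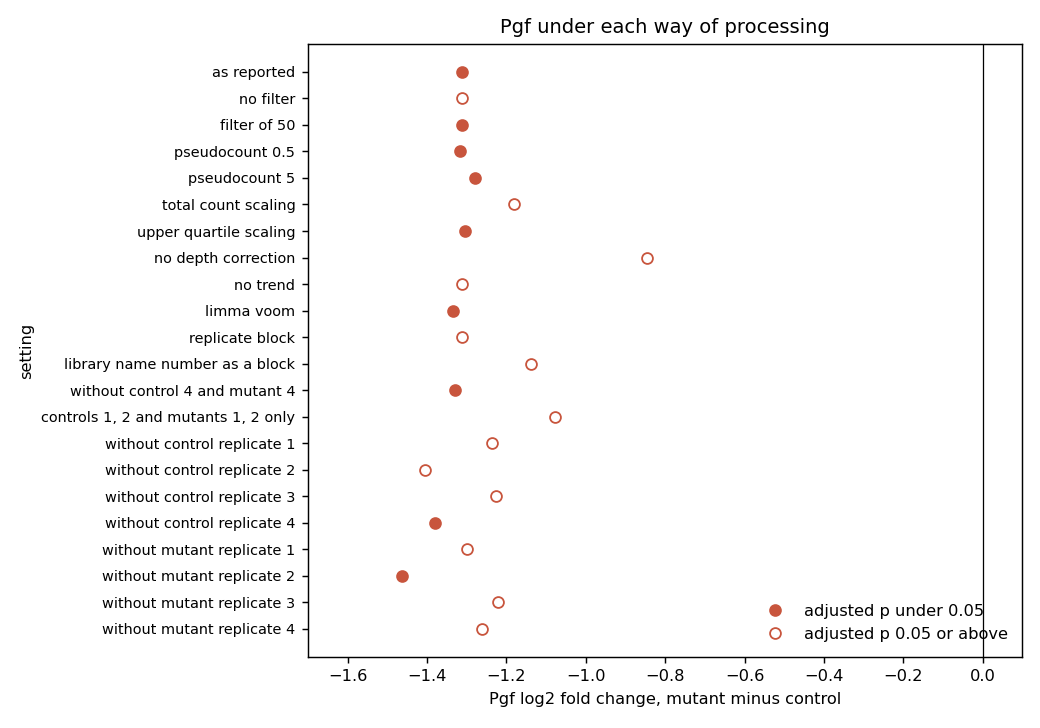
Log2 fold change of Pgf, mutant minus control, in the reported comparison (top) and under 21 alternative settings; filled points have an adjusted p under 0.05. All 22 values are negative, from −1.46 to −0.85, and 8 of the 21 alternatives pass.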

How the data were processed

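Kidney pairs were sequenced as polyA-selected paired reads, per the labels' protocols. Per the submitters' processing notes, fastp 0.23.2, kallisto 0.46.0, DESeq2 1.40.2 and build mm10 were used, with no roles given. The deposited log2 table is log2 of an estimated count plus 1 without depth correction, per the values: 73.4% of back-transformed values were whole within 1e-06. The authors' second file holds a mean normalized signal, log2 fold changes, a test score and p-values for 644 genes, per the file headers; how they were selected is not given.

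Back-transformed counts were divided by median-of-ratios size factors (0.361 to 1.27). The limma test (version 3.58.1, R 4.3.3, with a trend and genotype alone in the model) was run two-sided on log2(scaled count + 1) for the 14974 genes that reached 10 scaled counts in 4 or more libraries, with Benjamini-Hochberg adjustment and a threshold of 0.05. Fold changes on this scale understate those of low genes. P-values measure the spread between 4 embryos a group; depth was lowest in control 4. Relative levels used exact permutation in scipy 1.17.1. The fits were tested on simulated counts with independent libraries and the same spread setting for every gene. That test does not measure their error rate in these data. The ligands, gene lists and markers were chosen with earlier results of these data known. Named are all 10 ligands, Etv4, Etv5, the receptors, from each other list the 2 genes with the smallest p, and the 5 genes most like Vegfa; those like Pgf were added later. The hypoxia gene Ero1l was matched as Ero1a and the globin gene Hbb-bs had no match. The erythroid, platelet, mural, stromal and ureteric markers served as background and are given in the closing section. Positions are from GENCODE M21 (GRCm38, the assembly of mm10).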

Additional observations from a re-analysis of the deposited data

How the results depend on the processing

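Pgf was lower in mutants under all 21 alternatives (log2 fold change −1.46 to −0.85) and passed in 8, with limma adjusted p from 0.0285 to 0.626. The number of ligands past the threshold, 1, became 0 without a filter (Pgf adjusted p = 0.0680), with total count scaling (0.177), without depth correction (0.626), without a trend (0.0691), with the library name number as a block (0.134) and among controls 1 and 2 and mutants 1 and 2 alone (0.297). It ranged from 0 to 1 when each library was left out. The median of all genes shifted to 0.14 with total count scaling and 0.48 without depth correction, and relative to it Pgf stood at −1.32 in both. With the replicate block, Pgf had an adjusted p = 0.0533, so 0 ligands passed while 133 genes did, Tie1 (0.0475), Pdgfc (0.0305) and Hk2 (0.0224) among them. Deviations from the group means correlated at 0.27, 0.098, −0.13 and 0.35 across genes between libraries of the same replicate number, for numbers 1 to 4. Between a control and a mutant of different numbers the values ran from −0.31 to 0.24. They do not settle whether the replicate numbers pair the libraries. The block values for the 5 relative levels used sign flips over 4 pairs and passed for none. With the median over podocyte markers in place of the mean, Vegfa relative to them differed by −0.93 (exact permutation p = 0.0286, adjusted 0.143). That is the smallest p that 4 against 4 libraries allow, reached only when the groups do not overlap.

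The 45 genes past the threshold became 11 with total count scaling, 80 without depth correction, 28 without a trend, 69 with limma voom, 186 without control 4 and mutant 4 and 16 among controls 1 and 2 and mutants 1 and 2 (a quartet sharing 1 number in their names). They ranged from 2 (without control 3) to 167 (without control 4) when each library was left out. Tek passed without control 4 and mutant 4 (0.0423). The other 9 ligands passed in 0 of 189 alternative limma fits, with a smallest adjusted p of 0.175, and 5 had an unadjusted p below 0.05. The sign turned in 18 of the 189 fits, also for Vegfd, Pdgfb and Vegfb, whose reported log2 fold changes were 0.28, 0.19 and −0.19. Vegfa was −0.029 with the library name number as a block, −0.038 without control 4 and mutant 4, −0.176 in that quartet, and −0.028 without control 3; leaving out single libraries gave −0.032 (mutant 4) to 0.090. Vegfb was 0.28 without depth correction, or −0.19 relative to the shifted median. Vegfc was −0.007 without mutant 1 (up to 0.097 without control 2), and Vegfd was −0.001 and Pdgfb −0.043 in the quartet. Apln was −0.11 with the library name number as a block, −0.20 in the quartet, −0.017 and −0.007 without controls 1 or 3, and −0.048 and −0.045 without mutants 3 or 4 (up to 0.17 without mutant 2). Pdgfa was −0.071 with the library name number as a block, −0.066 without control 1 and −0.035 without mutant 3 (up to 0.19 without control 4). Relative to endothelial markers, Angpt2 was −0.18 in the quartet and Pdgfb was 0.036 without control 2 and 0.047 without mutant 2. The cause of these changes was not tested.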

Other observations

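Markers of other cell types varied without passing the limma threshold. Summed over 10 mural and smooth muscle markers, the target cells of PDGF-B, controls held 16193 to 22548 scaled counts and mutants 16332 to 18741. Of these markers 7 had positive and 3 negative fold changes, with 0 passing (4 at an unadjusted p below 0.05). The negative 3 were Des (−1.17, SE 0.20), Ren1 (−2.38, SE 0.44) and Rgs5 (−0.45, SE 0.23). Des was the largest marker in controls, at 8955 ± 1808 against 4032 ± 1060 in mutants, without overlap. The sum therefore mixes its fall with the 7 positive fold changes. The stromal markers summed to 88329 to 180533 in controls and 146906 to 159612 in mutants, with 6 of 9 positive. The ureteric markers summed to 25419 to 37097 and 31159 to 36180, with 4 of 8 positive. The platelet markers summed to 173 to 401 and 263 to 569, with 6 of 6 positive, and the erythroid markers to 178735 to 309474 and 208705 to 407305, with 5 of 7 positive. None of these markers passed (2, 3, 1 and 0 at an unadjusted p below 0.05). Over all genes tested, 12.0% had such an unadjusted p and 51.7% a positive fold change.

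Picked out after their values were seen, Cxcr4, a chemokine receptor that tip cells are known to carry, averaged 1121 ± 180 scaled counts over the 4 controls and 545 ± 218 over the 4 mutants, a log2 difference of −1.13 (limma adjusted p = 0.143, SE 0.29). Igfbp3 averaged 2669 ± 134 and 2090 ± 263, a log2 difference of −0.36 (limma adjusted p = 0.178, SE 0.10). They are on the tip cell and Notch list, where 9 of 12 members had positive fold changes. Both were lower in 4 of 4 mutants than in any control, which held for 4.43% of all genes tested in that direction. Bulk tissue does not show which cells held these 2 transcripts. Of the endothelial markers 13 of 14 had positive fold changes, and of the nephron progenitor markers 8 of 8 had negative ones. The part of either cell type was not tested.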
